A study of Mus musculus with 15 samples.

Results

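Cathepsins are the proteases of the lysosome, and cystatins are the proteins that block cysteine cathepsins. The 10 genes described here, the cathepsins *Ctsb*, *Ctsc*, *Ctsd*, *Ctsh*, *Ctsk*, *Ctsl*, *Ctss* and *Ctsz* and the cystatins *Cst3* and *Cstb*, were taken by symbol from the 24134 genes listed in each of 2 tables of RNA sequencing counts, and all 10 were found in both. The libraries came from primary articular chondrocytes (the cells of joint cartilage) isolated from ICR mice aged 4 to 5 days and cultured without passaging. The siRNA table held 3 libraries of cells given control siRNA (siCtrl) and 3 of cells in which siRNAs targeted *Tnks* together with *Tnks2* (siTnks/2), the genes of the tankyrases, enzymes that attach poly(ADP-ribose) to other proteins. No time is stated for the transfection. The drug table held 3 libraries each of cells kept for 108 h with the solvent DMSO, with 10 μM XAV939 or with 10 μM IWR-1, small molecules that inhibit tankyrase. The libraries of a group are described as biological replicates, without a statement of whether each came from its own litter. The question was how these 10 genes responded to double knockdown of the tankyrases and to either inhibitor, each against the control of the same table.

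Cathepsins are made as inactive precursors, tagged with mannose 6-phosphate, carried to the lysosome and activated in the acid that the proton pump (V-ATPase) creates there. Most are cysteine proteases of the papain family, whereas cathepsin D is an aspartic protease. In joints, cathepsin K is known for cutting the triple helix of collagen, and cathepsins B, D and L for degrading matrix proteins, while secreted cystatin C restrains cysteine cathepsins outside the cell. Protein levels and enzyme activity were not measured in these data.

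The mechanism of each enzyme is written in the coding sequence around its active site, shown here for the genes on which the comparisons turn (coding sequence of the GENCODE annotation, mm10, 5′ to 3′ on the strand of the gene). Capitals mark the codon of the catalytic cysteine, in *Ctsd* the codon of the first catalytic aspartate, and in *Cst3* the whole stretch for the loop that enters the cleft of the protease. Codons are numbered from the start codon.
Ctsb (codon 108, chr14:63135708-63136412, + strand, across an intron): tgcggctctTGTtgggcattt
Ctsl (codon 138, chr13:64367066-64367086, - strand): tgcgggtctTGTtgggcgttt
Ctsh (codon 139, chr9:90064513-90064533, + strand): tgtggcagcTGCtggactttc
Ctsc (codon 257, chr7:88308018-88308038, + strand): tgtggaagcTGCtactcattt
Ctsk (codon 139, chr3:95502588-95502608, + strand): tgtggttccTGTtgggctttc
Ctsd (codon 97, chr7:142383467-142383481, - strand): GATactggctcctct
Cst3 (codon 75, chr2:148872919-148875155, - strand, across an intron): CAGCTCGTGGCTGGA
Over the 21 bases of this window, *Ctsb* and *Ctsl* shared 19 bases, *Ctsk* and the nearly undetected *Ctss* shared 19, and *Ctsc* matched the other cysteine cathepsins in 11 to 15 bases.

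The promoters of 3 genes that passed a test below are shown because they differ in the short motifs they hold (the 250 bases before the RefSeq start site, build GRCm38.p6, strand of the gene). RefSeq promoters were at hand for 7 of the 10 genes. For *Ctsc* the start site used lies inside the gene span given below, which begins at 88278024. The end of its window, with the CCGCCC 16 bases before the start site used, thus falls within that span. Capitals mark CACGTG, the core of the element bound by the lysosomal regulator TFEB and by many other E-box factors, and GGGCGG or its reverse complement CCGCCC, the GC box. Both motifs were searched on both strands.
Ctsd (chr7:142387828-142388077, - strand): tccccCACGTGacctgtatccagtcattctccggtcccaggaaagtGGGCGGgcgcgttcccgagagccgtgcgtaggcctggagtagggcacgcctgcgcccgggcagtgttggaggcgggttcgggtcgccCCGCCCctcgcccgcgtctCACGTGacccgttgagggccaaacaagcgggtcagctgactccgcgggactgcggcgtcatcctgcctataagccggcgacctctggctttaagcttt
Cst3 (chr2:148875513-148875762, - strand): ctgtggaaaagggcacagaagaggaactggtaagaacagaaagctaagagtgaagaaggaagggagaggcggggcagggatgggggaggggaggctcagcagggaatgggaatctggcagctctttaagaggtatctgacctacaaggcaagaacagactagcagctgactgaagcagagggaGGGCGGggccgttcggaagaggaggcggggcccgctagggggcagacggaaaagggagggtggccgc
Ctsc (chr7:88277835-88278084, + strand): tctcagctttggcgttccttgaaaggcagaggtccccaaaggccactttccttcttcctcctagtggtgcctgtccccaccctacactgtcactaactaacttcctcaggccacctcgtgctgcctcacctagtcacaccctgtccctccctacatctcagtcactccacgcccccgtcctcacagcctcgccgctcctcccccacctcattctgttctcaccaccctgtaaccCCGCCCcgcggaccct
CACGTG was present in the promoters of *Ctsd*, which held 2 copies starting 245 and 98 bases before the start site, and of *Ctsl*, against 6.021% of 32851 mouse promoters. The whole *Ctsl* window (chr13:64370521-64370770) lies inside the gene span given below, whose 5′ end is at 64370772. Its match is therefore not upstream of that span. GGGCGG was found in 5 of the 7 promoters, those of *Cst3*, *Ctsz*, *Ctss*, *Ctsc* and *Ctsd*, against 32.742% of all promoters. The G and C share was 67.2% in *Ctsd*, 60.4% in *Ctsc* and 59.6% in *Cst3*, with a median of 52.4% over all promoters. A match describes letters in this window and is no evidence that a factor binds there.

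Between 26857070 and 36615194 reads were counted on genes per library. In the siRNA table, *Tnks* measured 69.0, 58.4 and 70.1 CPM (read counts scaled to library size with TMM factors) with siCtrl and 19.5, 12.7 and 24.0 CPM after knockdown, and *Tnks2* fell as well (log2 fold change −1.10, SE 0.11, adjusted p = 0.00384). The chondrocyte label was checked on 11 marker genes. All were expressed in every library, and together they took 9.67% to 12.5% of the counted reads in siCtrl, 13.4% to 19.8% in siTnks/2, 2.70% to 3.56% in DMSO, 4.16% to 5.68% in XAV939 and 9.67% to 11.9% in IWR-1. Of 15 leukocyte markers, 5 had at most 5 counts in every library, among them *Ptprc*, the leukocyte common antigen, and the macrophage genes *C1qa*, *C1qb* and *C1qc*. The highest were *Laptm5* (33 to 1509 counts), *Cd14* (90 to 1055), *Cd68* (63 to 323) and *Lyz2* (48 to 169). Of 7 osteoclast markers, *Dcstamp*, needed for osteoclast fusion, had at most 1 count, whereas *Acp5* had 285 to 941, *Itgb3* 181 to 878 and *Mmp9* 10 to 863. In bulk RNA, fewer cells of a type and less RNA per cell cannot be told apart.

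The levels of the 9 detected genes spanned nearly 3 orders of magnitude when divided by transcript length. *Ctsd* had the highest level per kilobase of transcript in every group, at 1247 ± 15.4 CPM per kb (SD, n = 3) in siCtrl and 687 ± 81.2 in DMSO. In siCtrl it was followed by *Cst3* (484 ± 62.1), *Ctsl* (246 ± 5.0), *Ctsb* (143 ± 7.83), *Ctsz* (113 ± 4.80), *Cstb* (87.4 ± 4.93), *Ctsh* (35.6 ± 3.17), *Ctsk* (6.79 ± 1.69) and *Ctsc* (1.34 ± 0.0554), and the library ranges of neighbours in this order did not overlap. The order was the same after knockdown. In DMSO, *Ctsl* (603 ± 76.8 CPM per kb) stood above *Cst3* (525 ± 111), and the ranges of *Ctsd*, *Ctsl* and *Cst3* overlapped each with the next, as did those of *Ctsz* and *Cstb*. The place of *Ctsl* depends on the transcript taken: with its longer transcript of 6168 bases in place of 1971, its level in DMSO came to 193 CPM per kb. The tables were normalised apart, so levels in siCtrl and DMSO were not tested against each other. The plot of levels per kilobase shows the same order in all groups but for these neighbours and for *Cstb* and *Ctsz*, which changed places with IWR-1. With IWR-1 the ranges of *Ctsh* and *Ctsk* overlapped as well.

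**Figure D1:**
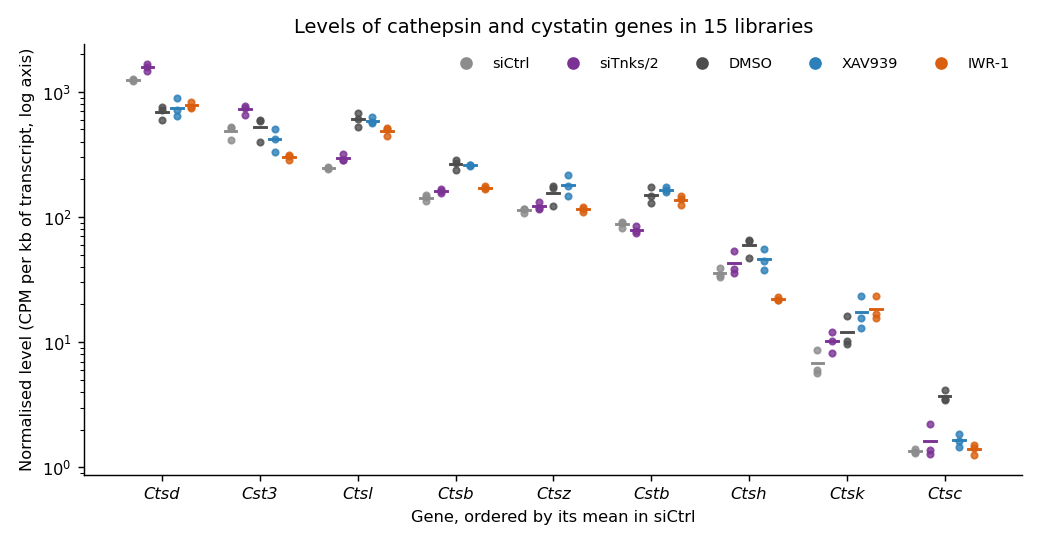
Normalised level of 9 genes in 15 libraries, in CPM per kilobase of transcript on a log axis. Points are libraries, colours are the 5 groups and bars are group means (n = 3). *Ctsd* lies highest in every group and *Ctsc* lowest, near 1 CPM per kb in siCtrl.

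*Ctss*, the cathepsin of antigen-presenting cells, was close to undetected. It had 0 counts in 10 of the 15 libraries and at most 3 in the others, and a count of 0 at these depths allows a level of up to 0.087 to 0.113 CPM, counting error only. It did not pass the filter on low counts and was not tested, so the tests below concern 9 of the 10 genes. *Ctsc* and *Ctsk* rested on the smallest counts of these 9, with 87 to 354 and 231 to 1210 reads per library.

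Double knockdown of *Tnks* and *Tnks2* raised 3 of the 9 tested genes, *Cst3*, *Ctsd* and *Ctsl*, and lowered 0, at log2 changes of 0.27 to 0.58 (edgeR's quasi-likelihood test, adjusted p under 0.05 over all genes). Of all 13672 genes tested, 18.0% passed the same limit, 10.4% higher and 7.61% lower. The median log2 fold change over the 9 genes was 0.27, against 0.00 over all genes. DESeq2's Wald test called 4 genes, the 3 above and *Ctsk*, and 23.2% of all genes.

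*Cst3* encodes cystatin C, the secreted inhibitor of cysteine cathepsins. It measured 443, 355 and 451 CPM in replicates 1, 2 and 3 of siCtrl and 641, 666 and 563 CPM after knockdown. Every knockdown library lay above every control library, a log2 change of 0.58 (SE 0.11, adjusted p = 0.0191). The share of all genes whose groups did not overlap was not counted, here and below. *Ctsd*, the aspartic endopeptidase of the lysosome, measured 2682, 2656 and 2617 CPM in siCtrl and 3361, 3574 and 3091 CPM in siTnks/2. Here too the groups did not overlap, with a log2 change of 0.33 (SE 0.09, adjusted p = 0.0444). *Ctsl*, a cysteine endopeptidase, rose from 493, 474 and 488 CPM to 565, 633 and 561 CPM, a log2 change of 0.27 (SE 0.07, adjusted p = 0.0434). The calls of *Ctsd* and *Ctsl* lie near the limit, and all 3 were lost without some libraries. With siCtrl replicate 1, siCtrl replicate 3 or siTnks/2 replicate 1 left out, 0 of the 9 genes passed, with siCtrl replicate 2 left out only *Cst3* did, and with siTnks/2 replicate 3 left out *Ctsl* missed the limit (log2 fold change 0.30, adjusted p = 0.0542). Without siCtrl replicates 1, 2 and 3 and siTnks/2 replicate 1, the share of all genes called fell as well, from 18.0% to 4.40%, 6.72%, 4.91% and 5.78%. Over these left-out libraries the adjusted p of *Cst3* reached 0.0679, that of *Ctsd* 0.151 and that of *Ctsl* 0.136, while all 3 log2 fold changes were above 0. Without a filter on low counts *Ctsd* (adjusted p = 0.0540) and *Ctsl* (adjusted p = 0.0576) missed the limit and 1 gene passed, with 2223 of all genes called in place of 2459.

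*Ctsk*, the collagen-cutting cathepsin, measured 9.05, 8.54 and 13.2 CPM in siCtrl and 15.4, 12.4 and 18.4 CPM in siTnks/2. The groups overlapped because replicate 3 was the highest library of both, and the log2 change of 0.58 (SE 0.21, adjusted p = 0.0958) did not pass. With the replicate number as a block, which compares libraries of the same number, it was 0.59 (SE 0.09, adjusted p = 0.00821). Without siTnks/2 replicate 2 it was 0.71 (adjusted p = 0.0395). *Ctsb*, a cysteine protease that also trims peptides from the carboxyl end, measured 684, 637 and 710.4 CPM in siCtrl and 759.8, 799.5 and 743 CPM in siTnks/2. Its groups did not overlap, but the log2 change of 0.18 (SE 0.07) had an adjusted p of 0.127. *Ctsh*, an aminopeptidase, and *Ctsc*, the dipeptidyl peptidase that activates serine proteases of leukocytes, had log2 changes of 0.26 (SE 0.16) and 0.27 (SE 0.23) with overlapping groups. In both genes siTnks/2 replicate 2 was the highest library, at 87.2 CPM against 57.2 and 62.6 CPM for *Ctsh* and at 5.56 CPM against 3.40 and 3.20 CPM for *Ctsc*. *Ctsz*, a carboxypeptidase, and *Cstb*, the cytosolic inhibitor cystatin B, had log2 changes of 0.10 (SE 0.07) and −0.15 (SE 0.07), with adjusted p-values of 0.331 and 0.181.

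Some markers of other cells moved with the knockdown too. The summed level of the 15 leukocyte markers was 22.4 to 24.4 CPM in siCtrl and 41.8 to 63.5 CPM in siTnks/2. *Laptm5*, a lysosomal membrane protein of blood cells, was the only one of 5 tested that rose (log2 fold change 1.85, SE 0.21, adjusted p = 0.00502). *Cd14* fell and 3 did not pass. In the siTnks/2 library with the highest sum, *Laptm5* alone stood at 53.8 CPM, so the sum does not show a rise of the list as a whole. Of the 7 osteoclast markers, summing to 18.5 to 22.2 CPM and 29.2 to 39.0 CPM, 3 of 4 tested rose, and of the 11 chondrocyte markers 5 rose and 0 fell. Over all genes tested, 10.4% rose and 7.61% fell. Of the 8 fibroblast markers *Fap* rose (log2 fold change 1.17, SE 0.12, adjusted p = 0.00384) and 7 did not pass. Their sum was 8512, 5446 and 9229 CPM in siCtrl and 7117, 2915 and 7988 CPM in siTnks/2, where replicate 2 was the lowest. That library also had the highest chondrocyte, leukocyte and osteoclast sums of its group. The part of these shifts in the rise of *Cst3*, *Ctsd* and *Ctsl* was not tested.

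**Figure D2:**
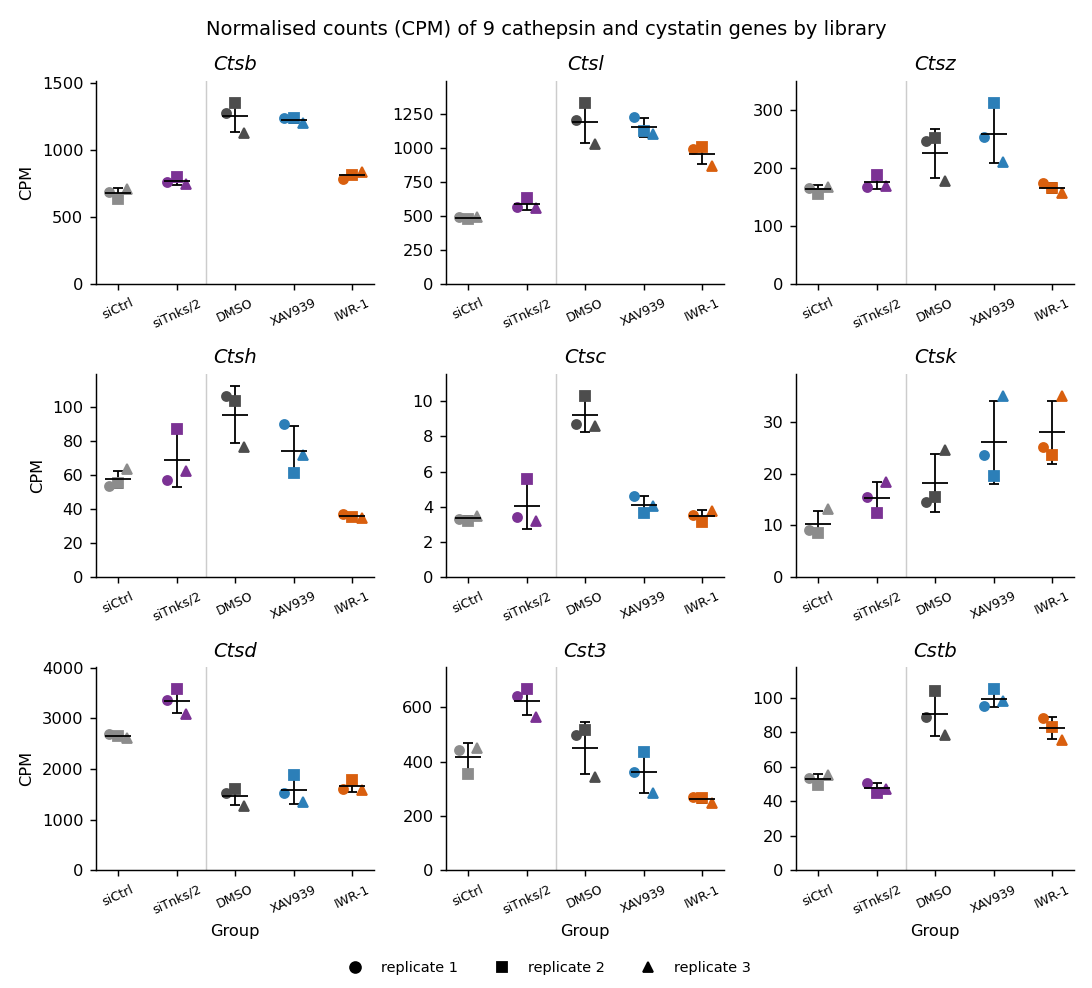
CPM of 9 genes in each library, 1 panel per gene, with the axis from 0. Symbols are replicates 1 to 3, and the horizontal bars with whiskers give mean ± SD (n = 3); the grey line parts the siRNA table from the drug table. *Ctsh* is lower in every IWR-1 library than in any DMSO or XAV939 library, and *Ctsd*, *Cst3* and *Ctsl* are higher in siTnks/2 than in siCtrl in every library.

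XAV939 lowered 1 of the 9 tested genes, *Ctsc*, and raised 0. Of the 13873 genes tested in the drug table, 17.4% passed with XAV939, 7.57% higher and 9.85% lower. *Ctsc* measured 8.72, 10.3 and 8.58 CPM with DMSO and 4.64, 3.64 and 4.04 CPM with XAV939. All XAV939 libraries lay below all DMSO libraries, at a log2 change of −1.15 (SE 0.15, adjusted p = 0.000690), and the value stayed between −1.24 and −1.06 over the alternatives run, with an adjusted p of at most 0.00364. The libraries of the other 8 tested genes overlapped between these groups.

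With libraries of the same replicate number compared (the block), 4 genes passed with XAV939, 3 lower and 1 higher, against 33.4% of all genes with the block, 2410 genes lower and 2220 higher. *Ctsh* measured 107, 104 and 76.7 CPM with DMSO and 90.2, 61.2 and 71.8 CPM with XAV939, a log2 change of −0.36 (SE 0.16, adjusted p = 0.138) without the block and −0.36 (SE 0.12, adjusted p = 0.0388) with it. Without DMSO replicate 3, the lowest of its group, it was −0.51 (adjusted p = 0.0341) and 2 genes passed. *Cst3* measured 499, 514 and 341 CPM with DMSO and 363, 435 and 283 CPM with XAV939, a log2 change of −0.33 (SE 0.18, adjusted p = 0.243) and, with the block, −0.32 (SE 0.11, adjusted p = 0.0424). *Ctsk* measured 14.5, 15.5 and 24.6 CPM with DMSO and 23.7, 19.5 and 35.0 CPM with XAV939. It was higher with XAV939 in 3 of 3 pairs of the same number, with a log2 change of 0.52 (SE 0.26, adjusted p = 0.189) and, with the block, 0.51 (SE 0.10, adjusted p = 0.00262). The remaining genes were *Ctsb* at −0.03 (SE 0.11, 95% interval −0.27 to 0.21), *Ctsl* at −0.04 (SE 0.13, −0.33 to 0.24), *Ctsd* at 0.12 (SE 0.15, −0.21 to 0.44), *Ctsz* at 0.20 (SE 0.17, −0.17 to 0.56) and *Cstb* at 0.14 (SE 0.12, −0.12 to 0.39). All 5 intervals include 0, and they show neither a change nor its absence.

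IWR-1 lowered 4 of the 9 tested genes, *Ctsb*, *Ctsc*, *Ctsh* and *Cst3*, and raised 0, against 36.4% of all 13873 genes that passed with IWR-1, 16.2% higher and 20.2% lower. The median log2 fold change over the 9 genes was −0.45, against 0.01 over all genes. The comparisons of XAV939 and of IWR-1 share their 3 DMSO libraries, so their values are given side by side only.

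*Ctsh* measured 107, 104 and 76.7 CPM with DMSO and 37.1, 35.4 and 35.0 CPM with IWR-1, where the libraries lay close together and far below DMSO. Its log2 change was −1.42 (SE 0.16, adjusted p = 7.17e-05). *Ctsc* measured 3.55, 3.11 and 3.74 CPM with IWR-1 against 8.58 CPM or more with DMSO, a log2 change of −1.39 (SE 0.15, adjusted p = 5.48e-05). *Cst3* measured 271, 265 and 247 CPM, below the lowest DMSO library at 341 CPM, with a log2 change of −0.79 (SE 0.18, adjusted p = 0.00600). *Ctsb* fell from 1275, 1354 and 1129 CPM to 787, 812 and 833 CPM, a log2 change of −0.63 (SE 0.11, adjusted p = 0.00105). These groups did not overlap in any of the 4 genes, without a count of such genes among all genes to set beside it. Each of the 4 passed under every alternative run, with the highest adjusted p at 0.0281 for *Cst3*.

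The call for 3 further genes depended on the settings of the test. With the block 7 of the 9 genes passed, 6 lower and 1 higher, against 47.5% of all genes, 25.3% lower and 22.2% higher. Without a block, DESeq2's Wald test called *Ctsz* (adjusted p = 0.0325) and *Ctsl* (adjusted p = 0.0268), and 38.2% of all genes. In edgeR without a block, *Ctsz* also passed with no filter (adjusted p = 0.0463) or with only the 2 groups compared (adjusted p = 0.0382). *Ctsz* measured 247, 252 and 177 CPM with DMSO and 174, 165 and 157 CPM with IWR-1, lower in every library, at −0.45 (SE 0.17, adjusted p = 0.0567) and, with the block, −0.43 (SE 0.11, adjusted p = 0.00663). *Ctsl* measured 1204, 1331 and 1029.7 CPM with DMSO and 994, 1008 and 866 CPM with IWR-1, again without overlap, at −0.31 (SE 0.13, adjusted p = 0.0781) and, with the block, −0.31 (SE 0.10, adjusted p = 0.0199). *Ctsk* went the other way, with 25.3, 23.7 and 35.1 CPM under IWR-1, at 0.62 (SE 0.26, adjusted p = 0.0825) and, with the block, 0.63 (SE 0.10, adjusted p = 0.000271). In the DMSO group, replicate 3 was the highest library for *Ctsk* and the lowest for *Ctsl*, *Ctsz*, *Ctsh* and *Cst3*. Without it, 7 genes passed in the fit without a block, with *Ctsk* at 0.89 (adjusted p = 0.0161), *Ctsl* at −0.41 (adjusted p = 0.0216) and *Ctsz* at −0.60 (adjusted p = 0.00965). Leaving out XAV939 replicate 2 or 3, which enter through the shared estimate of the spread, also brought *Ctsz* past the limit, with adjusted p-values of 0.0344 and 0.0333. *Ctsd* measured 1603, 1775 and 1588 CPM with IWR-1 against 1516, 1602 and 1269 CPM with DMSO, at 0.18 (SE 0.15, 95% interval −0.15 to 0.51), and *Cstb* was at −0.14 (SE 0.12, −0.39 to 0.12).

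**Figure D3:**
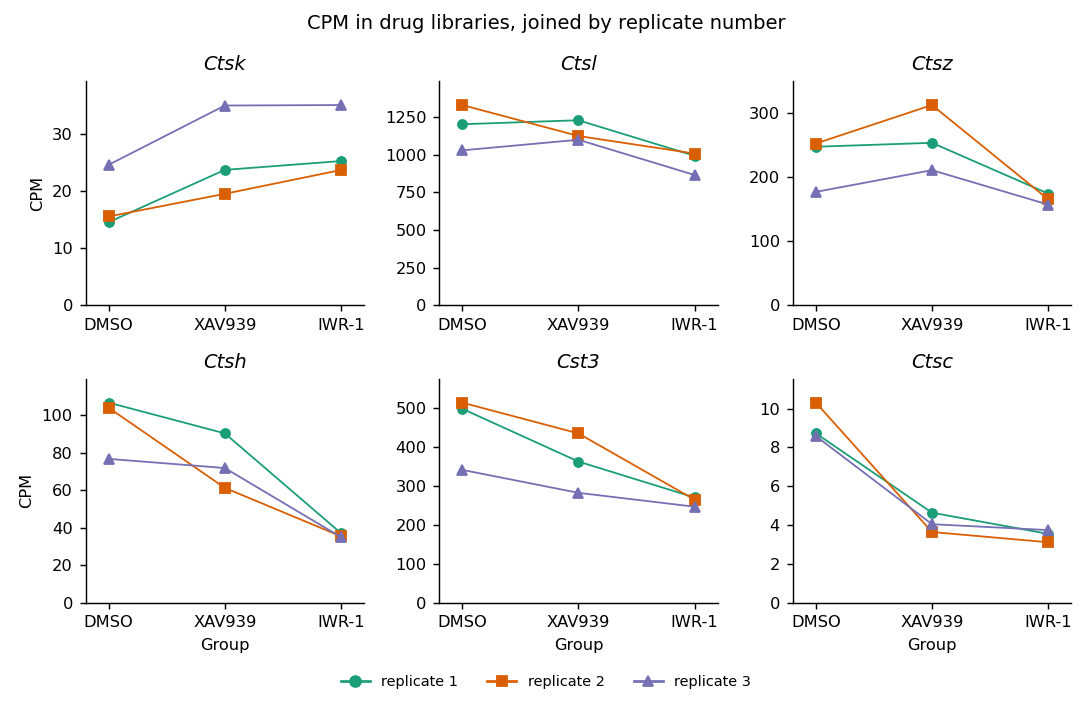
CPM of 6 genes in the drug table, with libraries of the same replicate number joined by a line and the axis from 0. *Ctsk* is higher with both inhibitors than with DMSO in all 3 numbers although replicate 3 lies above the others throughout, and *Ctsh*, *Cst3* and *Ctsc* fall from DMSO to IWR-1 in all 3.

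With IWR-1 the cartilage markers rose and some markers of other cells fell. All 11 chondrocyte markers rose (median log2 fold change 1.76), and of 8 fibroblast markers 5 fell. Over all genes tested, 16.2% rose and 20.2% fell. The fibroblast markers summed to between 12174 and 15228 CPM with DMSO and to between 5882 and 8803 CPM with IWR-1. The 15 leukocyte markers summed to 37.6 to 47.3 CPM with DMSO and 25.1 to 27.7 CPM with IWR-1, and of 7 tested 4 fell, *Cd14*, *Cd68*, *Csf1r* and *Mrc1*, and *Laptm5* rose. The osteoclast markers summed to 47.5 to 59.3 CPM and 30.4 to 40.9 CPM, and of 5 tested 2 fell and 0 rose. With XAV939 the leukocyte sum was 35.6 to 42.1 CPM, the osteoclast sum 55.7 to 64.4 CPM and the fibroblast sum 6395 to 8294 CPM. Of the 11 chondrocyte markers 5 rose and 0 fell with XAV939, and of the 8 fibroblast markers 1 rose and 4 fell. Of 7 tested leukocyte markers 1 rose and 1 fell, and of 5 tested osteoclast markers 1 rose and 0 fell. Over all genes tested, 7.57% rose and 9.85% fell with XAV939. The part of these shifts in the fall of the cathepsins was not tested.

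At the same dose and time, IWR-1 gave lower levels than XAV939 for 3 of the 9 genes, and higher for 0, against 17.6% of all genes that passed and 10.2% that were lower. *Ctsh* was lower by a log2 value of −1.05 (SE 0.16, adjusted p = 0.00148) and *Ctsb* by −0.60 (SE 0.11, adjusted p = 0.00385), with no overlap between the libraries. *Ctsz* measured 253, 312 and 211 CPM with XAV939, at −0.65 (SE 0.17, adjusted p = 0.0220). The call for *Ctsz* was lost without any 1 of IWR-1 replicates 1, 2 and 3 and XAV939 replicates 1 and 2, with adjusted p-values from 0.0528 to 0.0799 and log2 values from −0.67 to −0.49. *Ctsc*, lowered by both inhibitors against DMSO, was not shown to differ between them, at −0.24 (SE 0.15, 95% interval −0.58 to 0.10). With the block 5 genes were lower with IWR-1, against 30.7% of all genes that passed and 16.6% that were lower with it, adding *Cst3* (−0.44, SE 0.11, adjusted p = 0.0114) and *Cstb* (−0.27, SE 0.09, adjusted p = 0.0446). *Cst3* also passed without DMSO replicate 3 (adjusted p = 0.0444) or XAV939 replicate 3 (adjusted p = 0.0424).

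Whether knockdown and the inhibitors acted differently was tested as the difference between their log2 fold changes, in 1 model over the 15 libraries. Against XAV939, 2 of the 9 genes differed, both with the higher value for knockdown, where 13.5% of 14271 genes differed and 8.07% in that direction (59.9% of the genes that differed, and 47.3% with upper-quartile scaling). These were *Ctsc* (difference 1.43, SE 0.27, adjusted p = 0.00352) and *Cst3* (0.92, SE 0.24, adjusted p = 0.0202). The *Cst3* call was lost without DMSO replicate 1 (adjusted p = 0.0547) or siCtrl replicate 2 (adjusted p = 0.0522). *Ctsh* had a difference of 0.64 (SE 0.24, adjusted p = 0.0883), which was 0.62 (SE 0.19, adjusted p = 0.0304) with the block, 0.77 (adjusted p = 0.0421) without DMSO replicate 3 and 0.78 (adjusted p = 0.0475) without XAV939 replicate 1. Against IWR-1, 5 of the 9 genes differed, all with the higher value for knockdown, where 24.4% of all genes differed and 13.9% in that direction. They were *Ctsh* (1.69, SE 0.24, adjusted p = 0.000181), *Ctsc* (1.67, SE 0.27, adjusted p = 0.000455), *Cst3* (1.38, SE 0.24, adjusted p = 0.000773), *Ctsb* (0.82, SE 0.13, adjusted p = 0.000426) and *Ctsl* (0.60, SE 0.15, adjusted p = 0.00993). For *Cst3*, knockdown gave 0.58 and IWR-1 −0.79, each past its own test and of opposite sign. *Ctsz* had a difference of 0.56 (SE 0.20, adjusted p = 0.0567), 0.54 (SE 0.14, adjusted p = 0.0112) with the block and 0.70 (adjusted p = 0.00996) without DMSO replicate 3. *Ctsk* had differences of 0.08 (SE 0.36, 95% interval −0.69 to 0.85) from XAV939 and −0.03 (SE 0.38, −0.84 to 0.79) from IWR-1, and *Ctsd* of 0.23 (SE 0.18) and 0.16 (SE 0.18). The siRNA and drug tables differ in transfection as well as in how tankyrase was reduced, and these cannot be told apart. Their controls differ too. The 11 chondrocyte markers took 9.67% to 12.5% of reads in siCtrl and 2.70% to 3.56% in DMSO. *Ctsc* measured 3.33, 3.22 and 3.49 CPM in siCtrl and 8.72, 10.3 and 8.58 CPM in DMSO, with the tables normalised apart. The part of these starting levels in the differences was not tested. The time after transfection is not stated, so it may differ as well.

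**Figure D4:**
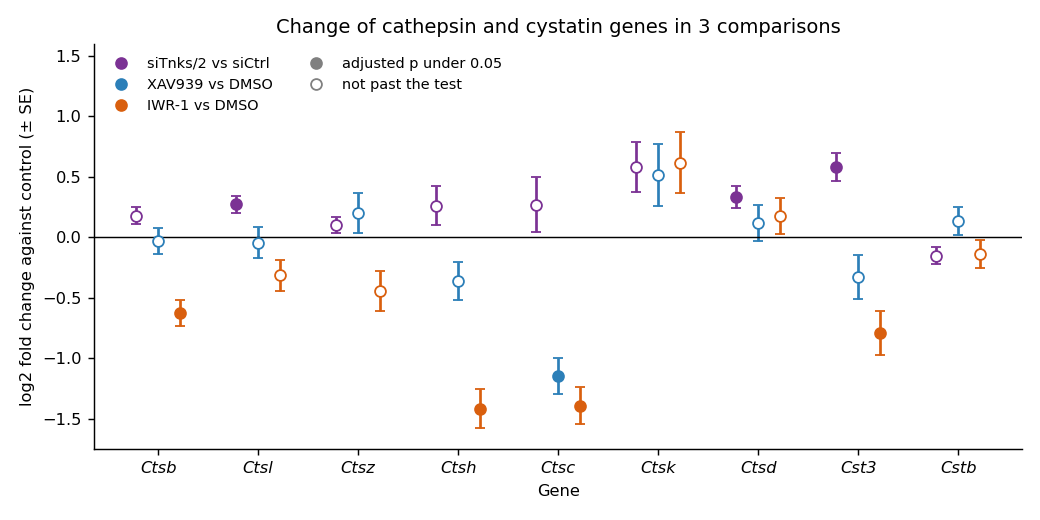
Log2 fold change against the control of the same table for 9 genes, with whiskers of 1 SE. Filled points passed the test at an adjusted p under 0.05. *Cst3* is at 0.58 with knockdown and at −0.79 with IWR-1. *Ctsk* lies between 0.52 and 0.62 in all 3 comparisons and passes in none of these fits, which have no block. With the replicate number as a block, not drawn here, *Ctsk* passed in all 3.

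The other genes of the lysosome were taken from 7 lists of 99 genes, of which 87 could be tested after knockdown and 88 with the inhibitors. After knockdown 21 rose and 5 fell, with a median log2 change of 0.16. With XAV939, 3 rose and 3 fell (median 0.04), and with IWR-1, 15 rose and 20 fell (median −0.06). The medians over all genes tested were 0.00, 0.02 and 0.01. The genes that passed made up 29.9% of those tested after knockdown, 6.82% with XAV939 and 39.8% with IWR-1, against 18.0%, 17.4% and 36.4% of all genes. With the block, the counts were 32 higher and 7 lower for knockdown, 10 higher and 9 lower for XAV939 and 19 higher and 26 lower for IWR-1. These were 44.8%, 21.6% and 51.1% of the genes tested, against 34.6% of all genes (18.1% higher and 16.5% lower) for knockdown, 33.4% for XAV939 and 47.5% for IWR-1.

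After knockdown 10.4% of all genes tested were higher and 7.61% lower, and differences between lists were not tested. The acid hydrolases, the enzymes that share the lysosome with the cathepsins, had 8 of 32 higher and 2 lower. The lysosomal membrane proteins had 5 of 16 higher, the V-ATPase subunits 4 of 18 higher and 1 lower, and the genes of enzyme sorting 3 of 9 higher and 1 lower. *Sort1*, the sorting receptor sortilin, rose most clearly (log2 fold change 1.06, SE 0.09, adjusted p = 0.00298), with *Gnptab* (0.67, SE 0.07, adjusted p = 0.00361), which encodes part of the enzyme that starts the mannose 6-phosphate tag, and *Atp6v1b2* (0.79, SE 0.09, adjusted p = 0.00410), a V-ATPase subunit. Lower were *Nagpa* (−0.37, SE 0.08), which finishes the same tag, *Atp6v0e* (−0.26, SE 0.06), another pump subunit, and *Ctso* (−0.51, SE 0.12), a cathepsin outside the 10 genes. The other cathepsins had 1 of 6 tested genes higher and 1 lower, and 0 of 3 tested other cystatins and 0 of 3 tested members of the TFEB family of lysosomal regulators passed. The count of 26 was 7, 6, 7 and 6 genes without siCtrl replicates 1, 2 and 3 and siTnks/2 replicate 1, where the count over all genes went from 2459 to 608, 930, 678 and 800.

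With IWR-1, where 16.2% of all genes were higher and 20.2% lower, the counts were as follows, and differences between lists were not tested. Of the other cathepsins 4 of 6 fell and 0 rose, of the other cystatins 2 of 4 fell, and of the acid hydrolases 10 of 32 fell and 2 rose, and of the lysosomal membrane proteins 7 of 16 rose and 2 fell, of the V-ATPase subunits 3 of 18 rose and 1 fell, and of the sorting genes 3 of 9 rose. *Kng1*, a kininogen with cystatin domains (−2.07, SE 0.18, adjusted p = 1.25e-05), *Pla2g15*, the lysosomal phospholipase (−0.70, SE 0.09, adjusted p = 0.000194), and *Mitf*, a transcription factor of the TFEB family (−1.40, SE 0.20, adjusted p = 0.000350), fell. *Atp6v1b2* (0.57, SE 0.09, adjusted p = 0.000524), *Neu1*, a sialidase (0.67, SE 0.10, adjusted p = 0.000546), and *Clcn7*, the chloride and proton exchanger of the lysosomal membrane (0.72, SE 0.12, adjusted p = 0.000646), rose. The count of 35 genes was 23 without DMSO replicate 1 and 21 without IWR-1 replicate 2, with 27.5% and 26.9% of all genes called.

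With XAV939 the 3 genes that fell were *Pla2g15* (−0.58, SE 0.09), *Mitf* (−1.06, SE 0.20) and *Kng1* (−0.68, SE 0.16), and the 3 that rose were *Tcirg1*, a V-ATPase subunit (0.55, SE 0.12), *Mcoln1*, the lysosomal calcium channel (0.42, SE 0.11), and *Gga2*, an adaptor of enzyme sorting (0.32, SE 0.09). The count of 6 was 11 without DMSO replicate 3, with 15.3% of all genes called. Upper-quartile scaling, which moved the median of all genes to 0.07, gave 7 higher and 3 lower.

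**Figure D5:**
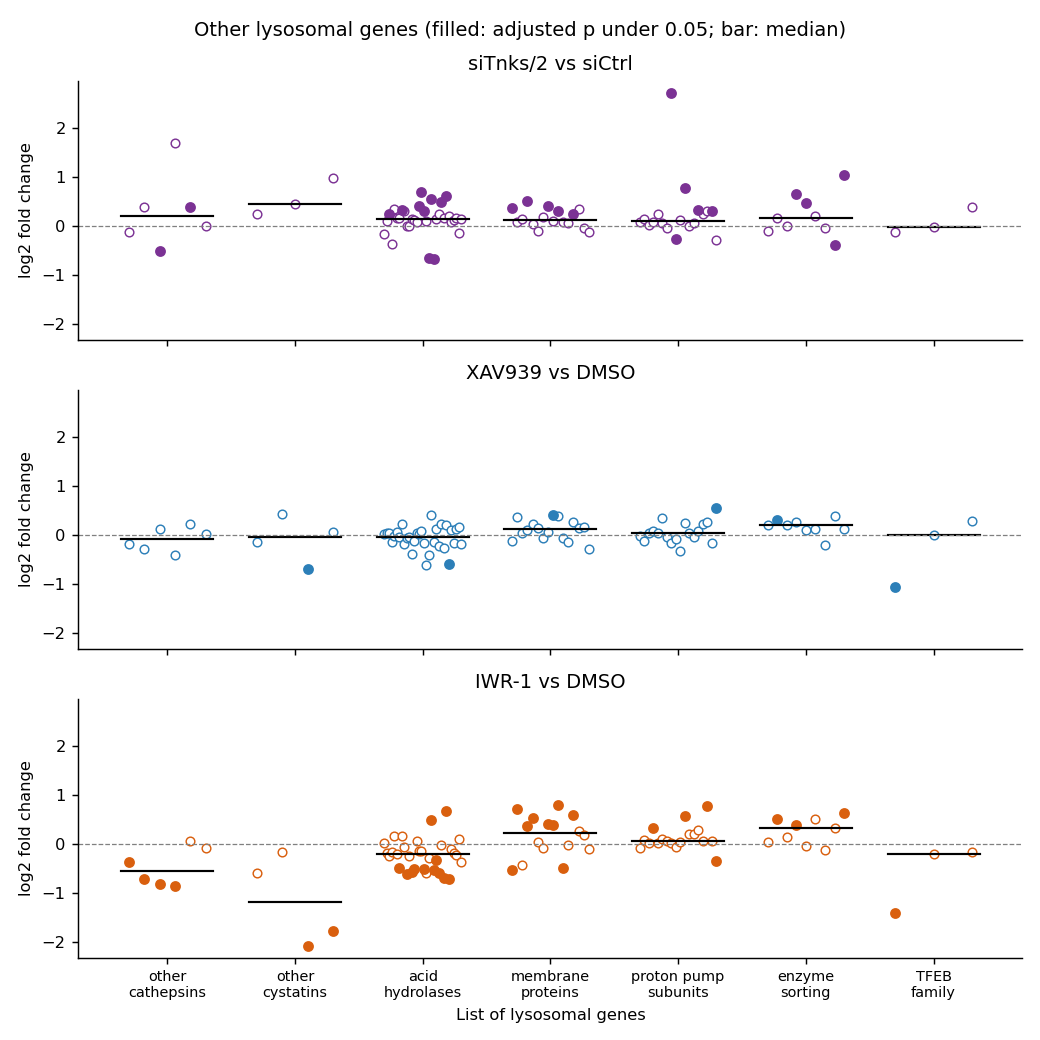
Log2 fold change of the tested genes of 7 lysosomal lists in the 3 comparisons, 1 point per gene. Filled points passed at an adjusted p under 0.05, and bars are list medians. The acid hydrolases have 8 higher and 2 lower after knockdown and 2 higher and 10 lower with IWR-1.

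For the genes tested, the lysosomal gene with the most similar profile was sought among 97 candidates by Pearson's r over the 15 libraries, after centring log2 levels within each table. The libraries share groups and replicate numbers, so r is a description only. *Ctsl* and *Cst3* were closest to *Cd63*, a membrane protein of late endosomes (r = 0.960 and 0.925), and *Ctsb* and *Ctsz* to *Fuca1*, the lysosomal fucosidase (0.953 and 0.887). *Ctsc* was closest to *Pla2g15* (0.943), *Ctsh* to *Naglu*, a heparan sulfate hydrolase (0.935), and *Ctsd* to *Gaa*, the acid glucosidase (0.930). *Cstb* was closest to *Ctsz* (0.691).

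Some of these genes overlap others in the genome, where reads may be shared or dropped, since the strand setting of the counting is not stated. *Ctsb* (gene ID 13030, chr14:63122462-63145923, + strand) overlaps *Fdft1* and *Ctsz* (gene ID 64138, chr2:174427494-174439039, − strand) overlaps *Nelfcd*, both on the opposite strand. *Ctsc* (gene ID 13032, chr7:88278024-88315861, + strand) overlaps a noncoding gene on the opposite strand, *Ctsd* (gene ID 13033, chr7:142375910-142387827, − strand) a predicted coding gene on its own strand, and *Ctsl* (gene ID 13039, chr13:64361890-64370772, − strand) an antisense gene and a pseudogene. *Ctsh* (gene ID 13036, chr9:90054267-90076095, + strand), *Ctsk* (gene ID 13038, chr3:95499210-95509387, + strand), *Cst3* (gene ID 13010, chr2:148871722-148875512, − strand) and *Cstb* (gene ID 13014, chr10:78425670-78427622, + strand) overlap no other gene in this annotation. *Ctss* (gene ID 13040, chr3:95526786-95556405, + strand) lies next to *Ctsk* and overlaps a pseudogene.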

How the data were processed

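RNA was sequenced from 15 libraries, 3 in each of 5 groups, grouped by their labels. For stranded poly(A) libraries, the authors ran Trimmomatic 0.32 for trimming, TopHat2 2.0.13 for alignment to mm10 and HTSeq 0.6.1p1 for counting per gene (versions from the submitters' processing notes). The deposited values are raw counts, without normalisation. The annotation and strand setting used are not given in the sources used here. Reads carry no molecular identifiers, so floors cover counting error only. Of the 24134 gene IDs, 24051 matched a symbol.

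The analysis used edgeR 4.0.16 under R 4.3.3 (filterByExpr, TMM, quasi-likelihood F test, prior count of 2), each table in its own fit over its groups, without a block. P-values were adjusted by Benjamini and Hochberg's method across every tested gene and called under 0.05, and intervals are 95%. Differences between effects are interaction terms in 1 model over the 15 libraries. Levels per kilobase use the principal transcript of GENCODE with the longest coding sequence, and the shortest such transcript where these tied. Coordinates are those of mm10. Steps were tested on simulated data. The study's own limits on fold change and q were not applied, because they concern its list of changed genes.

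The genes and lists were chosen with earlier results of these data known. Named are all 10 genes, for each direction, the 3 called genes of lowest adjusted p in the 7 lysosomal lists, in each control comparison, the most similar lysosomal gene, the highest markers or those at or near 0, and *Tnks* and *Tnks2*. The markers named as changed (*Laptm5*, *Cd14*, *Cd68*, *Csf1r*, *Mrc1* and *Fap*) were chosen after their values were seen. The gene most similar to *Ctsk* is not reported here. The alternatives were RLE and upper-quartile scaling, no filter or at least 10 counts in every library, DESeq2 1.42.0, the replicate block, fits restricted to the 2 groups compared, and leaving out each library.

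The replicate numbers come from the labels. After removal of group means, libraries of the same number correlated at 0.149 to 0.648 in 9 pairs of the drug table and at 0.469 to 0.545 in 3 pairs of the siRNA table, so the numbers were taken to pair the libraries. Pairs of different numbers reached 0.432 and 0.122. DMSO replicate 2 correlated more with replicate 1 of XAV939 (0.396) and of IWR-1 (0.432) than with their replicate 2 (0.149 and 0.301). The pairing of that library is therefore uncertain.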

Additional observations from a re-analysis of the deposited data

Results flagged for a closer look

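Results are listed here because the effect of knockdown and the effect of an inhibitor differed by a test of the difference itself (edgeR's quasi-likelihood test of the interaction term, adjusted p under 0.05). All values are the log2 fold change with knockdown less that with the inhibitor. For XAV939 they were 1.43 for *Ctsc* and 0.92 for *Cst3*. For IWR-1 they were 0.82 for *Ctsb*, 1.67 for *Ctsc*, 1.69 for *Ctsh*, 0.60 for *Ctsl* and 1.38 for *Cst3*. Among them, only *Cst3* against IWR-1 had both effects past their own tests, 0.58 with knockdown and −0.79 with IWR-1. With the replicate number as a block, *Ctsl* against IWR-1 (0.27 and −0.31, adjusted p = 0.0276 and 0.0199) and *Cst3* against XAV939 (0.59 and −0.32, adjusted p = 0.0155 and 0.0424) also had both. The cause of these differences was not tested.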

How the results depend on the processing

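The calls with IWR-1 (*Ctsb*, *Ctsc*, *Ctsh*, *Cst3*), the call of *Ctsc* with XAV939, and the differences between knockdown and IWR-1 of *Ctsb*, *Ctsc*, *Ctsh*, *Ctsl* and *Cst3* passed under every alternative run. Without a filter on low counts, 1 of the 9 cathepsin and cystatin genes was called after knockdown. Upper-quartile scaling gave 10 lysosomal genes with XAV939. With the replicate number as a block (the pairing of libraries), 4 of the 9 genes passed after knockdown, 4 with XAV939, 7 with IWR-1 and 5 between IWR-1 and XAV939, against 34.6%, 33.4%, 47.5% and 30.7% of all genes, and 19 lysosomal genes passed with XAV939; beyond those given above it changed no other call of the 9 genes.

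With 1 library left out at a time, the called genes of the 9 numbered 0 to 4 after knockdown, 1 to 2 with XAV939, 4 to 7 with IWR-1 and 1 to 3 for the difference between knockdown and XAV939, and the called lysosomal genes 6 to 28 after knockdown, 4 to 11 with XAV939 and 21 to 40 with IWR-1. Values that changed sign passed the test neither as reported nor under the alternative that changed it. With upper-quartile scaling and XAV939 these were *Ctsb* (0.020) and *Ctsl* (0.0043). For the difference between knockdown and IWR-1, *Cstb* was at 0.0045 with RLE scaling and 0.0044 with DESeq2. With 1 library left out, the log2 value of *Ctsc* after knockdown ranged from −0.021 to 0.41, with XAV939 *Ctsb* from −0.11 to 0.029, *Ctsd* from −0.025 to 0.20 and *Ctsl* from −0.15 to 0.044, and between IWR-1 and XAV939 *Ctsd* from −0.034 to 0.21 and *Ctsk* from −0.089 to 0.38. The difference between knockdown and XAV939 ranged from −0.20 to 0.35 for *Ctsk* and from −0.22 to 0.084 for *Ctsz*, and that between knockdown and IWR-1 from −0.31 to 0.20 for *Ctsk* and from −0.094 to 0.081 for *Cstb*. The cause of these changes was not tested, except that leaving out a library leaves 2 in its group, which are taken to vary like the others. With 3 libraries a group and 87 to 354 reads per library on *Ctsc*, depth and the number of libraries limit the size of change that can be detected.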
